A study of Rattus norvegicus with 9 samples.

Results

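The genes of corticotropin-releasing hormone (CRH) and of related stress peptides were examined in frontal tissue of 9 male rats of the inbred Lewis strain, on 1 Affymetrix array per animal. The 8 genes chosen were Crh, Crhr1, Crhr2, Crhbp, Adcyap1, Adcyap1r1, Tac1 and Ntsr2, and their probe sets were taken where the array annotation gave that symbol and no other. This found 6 of the 8, among the 10411 genes that have a probe set to themselves, on 9 of the 15866 probe sets that are not controls: 1 each for Crh, Crhbp, Adcyap1, Tac1 and Ntsr2, and 4 for Adcyap1r1. No probe set was listed under Crhr1 or Crhr2 alone, so these receptors were not analysed here. The rats form 1 untreated, singly housed group whose age is given only as a range of body weight, and the prefrontal cortex was dissected 12 days after the last behavioural test. Each rat carries 4 behavioural values with no units: startle from 67.7 to 501, locomotion from 536 to 1102, a plus maze score from 0 to 18.7 and sugar feeding from 0.8 to 4.7. The question the study's title sets is whether brain mRNA goes with behaviour among animals of 1 inbred strain. The labels name each sample as an individual rat, so the spread between samples holds both animal and array differences.

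CRH starts the hormonal stress response from the hypothalamus and is also made by interneurons of the cortex. It acts through the G protein-coupled receptors encoded by Crhr1 and Crhr2, while the secreted binding protein encoded by Crhbp takes up free CRH. Adcyap1 encodes PACAP, a peptide that raises cyclic AMP through the receptor encoded by Adcyap1r1. Tac1 encodes the precursor of substance P and neurokinin A, and Ntsr2 encodes a neurotensin receptor found mainly on astrocytes in the brain.

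Of the 9 probe sets, 4 lay above background and 5 below it. Background was set at 3.22 log2 units, the 40th percentile of the mean over the 9 arrays among all probe sets, because no detection calls were used here. As a check, 37 probe sets of 28 genes that belong to other organs (albumin, insulin, pituitary hormones and others) had a median of 2.47, and 6 of them lay above the threshold. Their 95th percentile was 3.72 and the highest, for albumin, was 5.05, so a value above the threshold does not by itself show expression. Above background were the binding protein Crhbp, the peptide Adcyap1, the receptor Ntsr2 and 1 of the 4 probe sets of the receptor Adcyap1r1. Below it were Crh itself, Tac1 and the other 3 Adcyap1r1 probe sets. Probe sets differ in how strongly they bind, so these levels do not rank the amounts of the different mRNAs, and a value below the threshold does not show that an mRNA is absent.

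**Figure D1:**
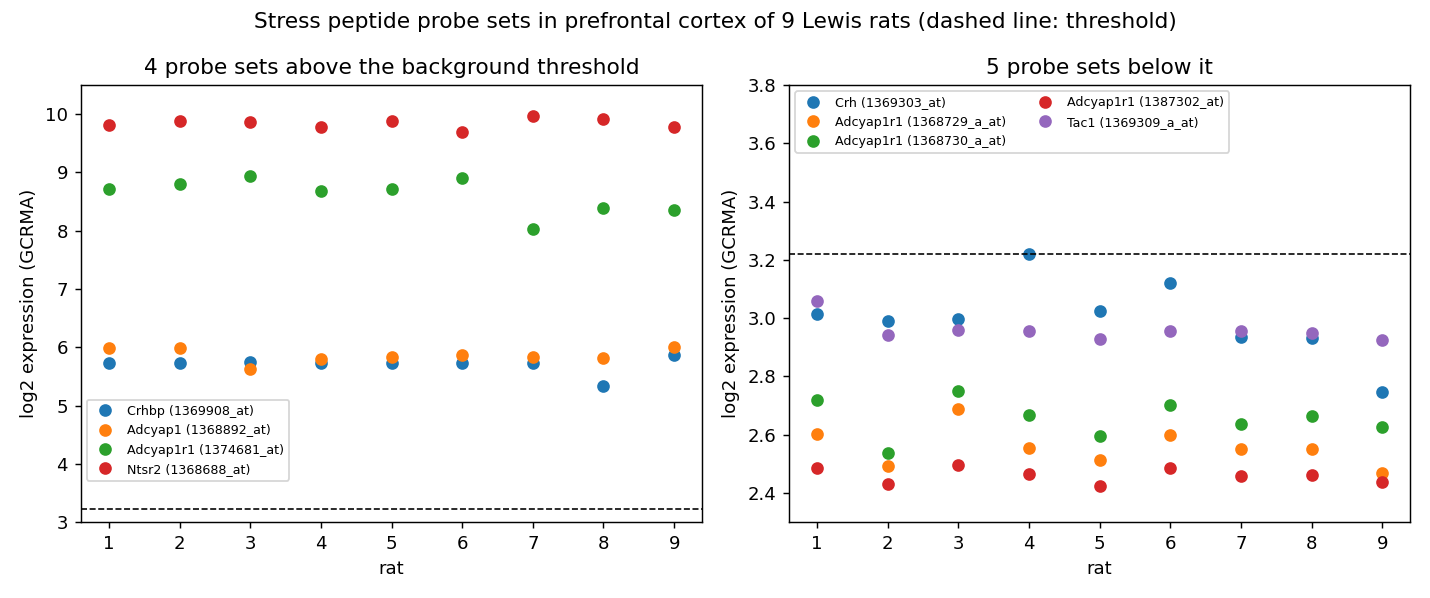
Log2 expression (y axis) of each probe set in each of the 9 rats (x axis), 1 point per array, with the background threshold of 3.22 as a dashed line. The left panel holds the 4 probe sets above it and the right panel, on a narrower scale, the 5 below it; Crh reaches the line in rat 4 only.

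Among the peptides, Crh averaged 2.998 ± 0.131 log2 units (SD, n = 9). Its values were 3.01, 2.99, 3.00, 3.22, 3.03, 3.12, 2.94, 2.93 and 2.75 in rats 1 to 9. It was under the threshold on 8 of 9 arrays, and the value of rat 4 equalled the threshold at this rounding. Rat 9 was the lowest and rat 4 the highest, a 1.39-fold span. Tac1 averaged 2.96 ± 0.039 (SD, n = 9) and was under the threshold on all 9 arrays, with 3 arrays sharing 1 value and rat 1 apart at 3.06. Tac1 is a marker of striatal projection neurons. Of 8 measured striatal markers, 4 were below the threshold as well (the dopamine receptor genes Drd1 and Drd2, the adenosine receptor gene Adora2a, and Rgs9) and 4 were above it (Penk at 8.97, Pde10a at 7.90, Ppp1r1b at 7.74 and Gng7 at 3.30). Hypothalamic markers were also below it, 6 of 6.

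The third peptide, Adcyap1, was above background in every rat, at 5.86 ± 0.121 log2 units (SD, n = 9). Its values were 5.99, 5.99, 5.62, 5.81, 5.84, 5.87, 5.83, 5.81 and 6.00 in rats 1 to 9. Rat 3, the rat with the highest startle and the lowest locomotion, was the lowest, and rats 1, 2 and 9 were level at the top. The span was 1.30-fold, and 23.0% of the 9520 probe sets above the threshold had a smaller SD.

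Of the 4 probe sets above background, the one of the PACAP receptor gene Adcyap1r1 varied most. It averaged 8.62 ± 0.298 (SD, n = 9), with 8.72, 8.81, 8.94, 8.69, 8.72, 8.90, 8.03, 8.39 and 8.36 in rats 1 to 9. Rats 7, 8 and 9 lay below the other 6, and the lowest and highest rats differed 1.88-fold. Of the probe sets above the threshold, 78.8% had a smaller SD, and the median SD was 0.190. The other 3 probe sets of the gene averaged 2.56 ± 0.066, 2.66 ± 0.065 and 2.46 ± 0.025 (SD, n = 9) and were under the threshold on all 9 arrays. They correlated with each other across rats at r = 0.865 to 0.930, and with the bright one at 0.241 to 0.444. Which of the 4 follows the receptor's mRNA was not tested. Where values below are given for Adcyap1r1 or the receptor gene without further label, they are those of the bright probe set alone.

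The arrays differed a little in the level of their low probe sets, and the 3 low Adcyap1r1 probe sets followed that level. The median over the 6346 probe sets below the threshold ran from 2.38 in rat 2 to 2.51 in rat 3. The median over all probe sets was also lowest in rat 2 (4.11) and highest in rat 3 (4.28). The shift was therefore not particular to low probe sets, and its cause was not tested. The median below the threshold is called the array background level here. The 3 probe sets correlated with it at r = 0.960, 0.951 and 0.975 over the 9 arrays. For Tac1 the value was 0.561 and for Crh 0.317. Among the probe sets above background it was 0.346 for Adcyap1r1, -0.160 for Crhbp, -0.190 for Ntsr2 and -0.574 for Adcyap1. These correlations describe arrays and carry no test.

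Crhbp, the binding protein, averaged 5.70 ± 0.142 log2 units (SD, n = 9), but it had the identical value of 5.73 in 6 of the 9 rats. Rat 3 stood at 5.75, rat 9 at 5.86 and rat 8 at 5.34. Only 13 probe sets had 1 value on 6 or more arrays, 0.137% of those above the threshold. The SD of Crhbp therefore rests on rats 8 and 9, and over the other 7 it was 0.0086. Why the deposited values coincide was not tested. The division of arrays 8 and 9 from the rest comes from earlier results of these data, which are not shown here, and the labels name no batch. Their medians over the probe sets below the threshold, 2.45 and 2.39, lay within the range of the other 7. Crhbp places the 2 arrays on opposite sides of the other 7.

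Ntsr2, the astrocytic neurotensin receptor, was the steadiest of the 4, at 9.84 ± 0.085 (SD, n = 9). It ran from 9.69 in rat 6 to 9.97 in rat 7, a 1.22-fold span, with a median of 9.87. Only 11.4% of the probe sets above the threshold had a smaller SD. Of 12 astrocyte marker genes 11 were measured and 10 were above background, with Gfap at 9.69 and Aqp4 at 10.3. Across rats Ntsr2 correlated with these 10 markers at a median r of -0.122, from -0.489 to 0.095. The median over all 6769 genes compared was -0.107. The median r of Ntsr2 was 0.413 with 4 striatal markers, 0.328 with 6 markers of pyramidal neurons and 0.268 with 6 oligodendrocyte markers. It was 0.810 with 1 olfactory bulb marker. With interneuron markers it was -0.087, with endothelial markers -0.077, with genes of other organs -0.172 and with microglial markers -0.312. For Adcyap1r1 the median over all genes was 0.264. Its median r was 0.524 with the astrocyte markers, 0.601 with 5 microglial markers and -0.448 with 6 markers of pyramidal neurons. It was 0.519 with 5 endothelial markers and 0.401 with 5 genes of other organs, so values above 0.264 were not particular to glia. With oligodendrocyte markers it was 0.058, with interneuron markers -0.061, with striatal markers -0.129 and with 1 olfactory bulb marker -0.321. These correlations are descriptions over 9 rats, in which cell number and RNA per cell cannot be told apart.

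The difference between rats 8 and 9 and the other 7 rats was unequal across the members. The mean of the pair minus that of the other 7 rats was -0.31 for Adcyap1r1 (8.38 against 8.69), -0.13 for Crhbp (5.60 against 5.73), 0.058 for Adcyap1 (5.91 against 5.85) and 0.015 for Ntsr2 (9.85 against 9.84). For Adcyap1r1 both arrays lay within the range of the other 7, since rat 7 was lower still. For Crhbp the mean of the pair describes neither array, since rat 8 (5.34) lay below the other 7 and rat 9 (5.86) above them. For Crh the difference was -0.20, with both arrays below every other rat, with rat 7 at 2.94 next to rat 8 at 2.93. This pair is named from the data and the difference was not tested.

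The RefSeq promoter windows of 2 of these genes are given. They belong to Adcyap1r1, whose bright probe set varied most, and to the binding protein gene Crhbp, and they differ in base composition. Each runs from 250 bases before to 50 after the annotated start in build GRCr8, 5′ to 3′ on the gene's strand. Capitals mark matches, on either strand, to the cyclic AMP response core TGACG or its complement CGTCA, the full site TGACGTCA, the TATA box TATAAA and the E-box CACGTG. A full site would hold the core. Crhbp lies on the minus strand at chr2:28439397-28439696 and Adcyap1r1 on the plus strand at chr4:85923921-85924220.
Crhbp: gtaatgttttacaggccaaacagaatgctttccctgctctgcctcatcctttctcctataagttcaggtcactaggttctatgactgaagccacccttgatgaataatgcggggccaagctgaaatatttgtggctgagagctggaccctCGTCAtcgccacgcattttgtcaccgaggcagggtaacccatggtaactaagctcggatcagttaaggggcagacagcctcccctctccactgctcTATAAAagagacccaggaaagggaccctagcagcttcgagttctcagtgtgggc
Adcyap1r1: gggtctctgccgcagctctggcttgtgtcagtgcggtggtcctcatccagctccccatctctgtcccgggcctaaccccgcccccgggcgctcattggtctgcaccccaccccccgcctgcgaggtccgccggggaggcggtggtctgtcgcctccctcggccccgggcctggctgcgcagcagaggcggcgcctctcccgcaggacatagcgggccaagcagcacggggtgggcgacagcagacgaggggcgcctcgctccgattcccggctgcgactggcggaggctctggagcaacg
The Crhbp window holds 1 core that begins 100 bases before the start, and 1 TATA box match that begins 4 bases before it and runs across it. The Adcyap1r1 window holds none of the 4 motifs and has a GC content of 73.0%, higher than 95.1% of windows, against 51.0% in Crhbp. Of the 33469 windows of this length, 21.2% hold the core, 14.2% the TATA box, 6.42% the E-box and 1.83% the full site. The Crhr2 window also has 1 core, the Tac1 window 1 core and 1 E-box, and the Adcyap1 window 1 TATA box. Windows were found for 7 of the 8 genes, all but Crh. A match is a description of letters and not evidence of binding.

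Startle was the measure with which a member had its lowest p. The bright Adcyap1r1 probe set had a startle slope of 0.21 ± 0.075 (SE, n = 9), in log2 units for each SD of the measure, which did not pass the test over all probe sets. The correlation was r = 0.691 and rho = 0.750 (exact permutation p = 0.0393 and 0.0255). The limma adjusted p over the 9520 probe sets was 0.359. The 3 rats with the highest startle, rats 3, 1 and 6, stood at 8.94, 8.72 and 8.90, and the 2 with the lowest, rats 8 and 7, at 8.39 and 8.03. With rats 1 and 3 left out, whose startle lies farthest from its median, r was 0.676, and in the 7 rats other than 8 and 9 it was 0.646 (exact permutation p = 0.0798).

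The count has to be read against the whole array. At a limma p under 0.05 before adjustment, 1 of the 4 members above background was called for startle, where 1260 of 9520 probe sets (13.2%) were, and none passed adjustment (0%). The array background level itself went with startle at r = 0.627 and rho = 0.533 (exact permutation p = 0.0733 and 0.148), at 0.796 in the 7 rats and at 0.030 without rats 1 and 3. Of the 6346 probe sets below the threshold, 74.9% had an r of at least 0.5 with startle, and among those above it 22.9%. The 3 low Adcyap1r1 probe sets had r = 0.674, 0.555 and 0.632 with startle, so they share a positive sign with the bright one. They are no separate support for it, since they lie below the threshold and follow the array level. With a term for that level the slope of the bright probe set was 0.23 ± 0.102 (SE, n = 9), and its unadjusted p was no longer under 0.05. The unadjusted call was lost in 6 of 18 alternatives: with this term, with array weights (slope 0.18), with a term for rats 8 and 9 (0.18), without these rats (0.21), without rats 1 and 3 (0.31) and without rat 3 alone (0.21).

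**Figure D2:**
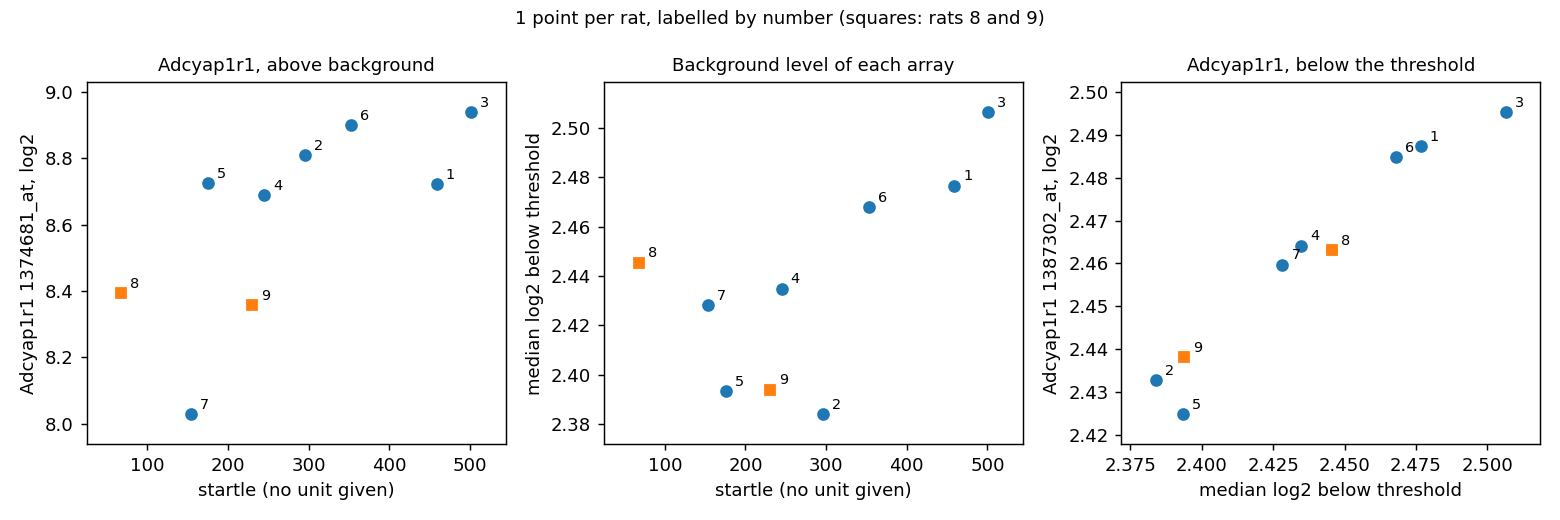
Each point is 1 rat, labelled by its number, with rats 8 and 9 as squares. The bright Adcyap1r1 probe set (log2) against startle (r = 0.691), the median log2 of all probe sets below the threshold against startle (r = 0.627), and a low Adcyap1r1 probe set against that median (r = 0.975); rat 7 is the lowest in the first panel.

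No other member had an unadjusted p under 0.05 for startle. Crhbp had a slope of 0.069 ± 0.048 (SE, n = 9), with r = 0.488 and rho = 0.465 (exact permutation p = 0.202 and 0.218). This rested on rat 8, which has both the lowest startle and the lowest Crhbp, and r was -0.122 without it. With a term for the array background level the Crhbp slope was 0.138 ± 0.050, with an unadjusted p under 0.05 and a limma adjusted p of 0.477. With that term 932 of 9520 probe sets had an unadjusted p under 0.05. Without rats 8 and 9 the Crhbp slope was 0.0057 ± 0.028, but there 6 Crhbp values are equal and only rat 3 differs. Ntsr2 had r = -0.419 and rho = -0.550 (exact permutation p = 0.262 and 0.133), with -0.759 without rats 1 and 3 and -0.360 in the 7 rats. Adcyap1 had r = -0.120 and rho = 0.033 (exact permutation p = 0.759 and 0.948), and r was 0.606 without rat 3 alone. The limma adjusted p was 0.522 for Crhbp, 0.660 for Ntsr2 and 0.904 for Adcyap1. Below background, Tac1 had r = 0.553 with startle and Crh 0.234.

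For locomotion 0 of the 4 members above background had an unadjusted limma p under 0.05, where 1.96% of probe sets did, and 0% passed adjustment. That background rests on rat 1: 187 probe sets were called with it, 937 without it and 1258 without rats 1 and 3, with no member among them. The PACAP gene Adcyap1 had the largest slope per SE, 0.071 ± 0.041 (SE, n = 9), with r = 0.589 and rho = 0.25 (exact permutation p = 0.095 and 0.521) and a limma adjusted p of 1.00. Without rats 1 and 3, which have the highest and the lowest locomotion, r was 0.031, and in the 7 rats it was 0.731 (exact permutation p = 0.0738). Adcyap1r1, its receptor gene, had r = -0.110 and rho = -0.483 (exact permutation p = 0.779 and 0.194). Crhbp had r = -0.354 and rho = -0.396 (exact permutation p = 0.339 and 0.318), which was 0.018 without rat 8. Ntsr2 had r = -0.024 (exact permutation p = 0.952). Tac1, below background, had r = 0.608 with locomotion over 9 rats and -0.358 without rat 1, whose locomotion and Tac1 were both the highest.

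For the plus maze 0 of the 4 members were called before adjustment, against 2.99% of probe sets, and again 0% after it. With array weights 1158 probe sets were called in place of 285, Adcyap1r1 (0.15 ± 0.059) and Ntsr2 (-0.062 ± 0.027) among them, with limma adjusted p of 0.354 and 0.404. Adcyap1r1 was also called before adjustment without rat 3, at 0.19 ± 0.081, where 415 of 9520 probe sets were. Adcyap1 had r = 0.440 and rho = 0.303 (exact permutation p = 0.233 and 0.423), and Adcyap1r1 had r = 0.436 and rho = 0.319 (exact permutation p = 0.229 and 0.397). Without rats 2 and 6, which share the highest plus maze value, these r were 0.412 and 0.057. In the 7 rats they were 0.683 and 0.354. Crhbp had r = -0.082 and rho = -0.629 (exact permutation p = 0.849 and 0.0794), the latter with the 6 equal Crhbp values tied in rank. Ntsr2 had r = -0.362 and rho = -0.134 (exact permutation p = 0.334 and 0.731), and r was 0.0012 without rats 2 and 6. The limma adjusted p was 0.999 for all 4.

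For sugar feeding, none of the 4 members was called before adjustment, against 1.40% of probe sets, and 0% passed it. Without rat 4 the count over all probe sets was 1329 in place of 133, with no member among them. The r was -0.335 for Crhbp (exact permutation p = 0.343), -0.094 for Adcyap1 (exact permutation p = 0.792), -0.068 for Adcyap1r1 (exact permutation p = 0.863) and -0.039 for Ntsr2 (exact permutation p = 0.918). Their rho were -0.119, -0.233, -0.283 and -0.117 (exact permutation p = 0.770, 0.552, 0.463 and 0.776), and the limma adjusted p was 1.00 for all 4. The r of Crhbp was 0.406 without rats 4 and 8, which fed on sugar most. Crh, below background, had r = 0.305, and -0.441 without rat 4, which had both the highest sugar feeding and the highest Crh.

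**Figure D3:**
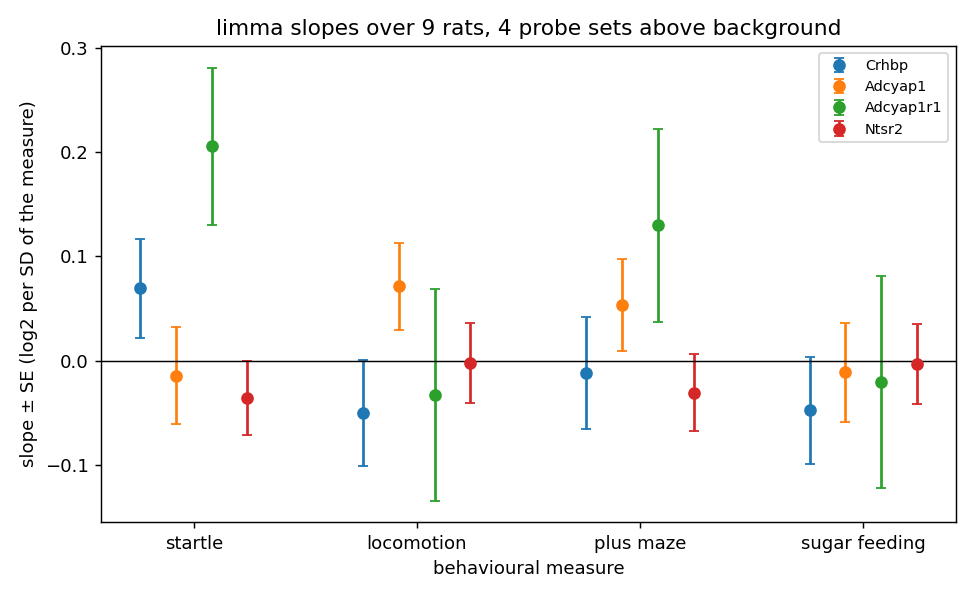
Slope of each of the 4 probe sets above background (y axis, log2 units per SD of the measure, error bars ± SE, n = 9) on each of the 4 behavioural measures (x axis). The Adcyap1r1 slope on startle, 0.21 ± 0.075, lies farthest from 0, and no slope passed adjustment over 9520 probe sets.

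Pairs were formed from Crh and the 4 genes above background, and no pair with Tac1 was computed. None of these 10 pairs had a correlation with an exact permutation p under 0.05. Of the 10, Adcyap1r1 and Crh had the highest correlation, at r = 0.545 and rho = 0.517 (exact permutation p = 0.138 and 0.162). With rats 4 and 9 left out, whose Crh lies farthest from its median, r was 0.706, and in the 7 rats 0.386. Adcyap1r1 and Ntsr2 had r = -0.540 and rho = -0.333 (exact permutation p = 0.137 and 0.385), with -0.636 in the 7 rats and -0.473 without rats 7 and 9. The ligand Adcyap1 and its receptor gene had r = -0.176 and rho = -0.133 (exact permutation p = 0.636 and 0.744), with -0.083 in the 7 rats and 0.436 without rats 3 and 9. Ntsr2 and Crh had r = -0.372 and rho = -0.567 (exact permutation p = 0.322 and 0.121), with -0.951 without rats 4 and 9 and -0.784 in the 7 rats. Crhbp and Crh had r = -0.062 and rho = -0.149 (exact permutation p = 0.80 and 0.706), with 0.469 without rats 4 and 9 and -0.218 in the 7 rats. Crhbp and Adcyap1 had r = 0.227 and rho = 0.218 (exact permutation p = 0.530 and 0.587). In the 7 rats their r was -0.799, but there 6 Crhbp values are equal and only rat 3 differs. That limit also holds for Crhbp and Crh in the 7 rats. Crh was below background, which limits each pair that holds it.

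Among 6769 genes above background, those with the pattern most like Adcyap1r1 over the 9 rats were Eif3l (r = 0.968), Eno1 (0.967) and Mrpl37 (0.963), with 0.983, 0.978 and 0.953 in the 7 rats. In all, 27 genes reached an r of 0.9 with it. For Adcyap1 they were Tmem115 (0.891), Cacul1 (0.877) and Bccip (0.872), with 0.873, 0.854 and 0.889 in the 7 rats. For Ntsr2 they were Btbd8 (0.936), Kdm4b (0.873) and Psmd3 (0.840), with 0.933, 0.902 and 0.866. For Crhbp they were Agtpbp1 (0.974), Gspt1 (0.936) and Smc3 (0.922), and in the 7 rats these were 0.121, 0.406 and 0.081. In the 7 rats 6 Crhbp values are equal and only rat 3 differs, so the r there cannot show whether the likeness holds. The genes named have the highest of many correlations, which carry no test.

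Of 15 genes measured from a list of CRH relatives and the pituitary-adrenal axis, 6 were above background: the glucocorticoid and mineralocorticoid receptor genes Nr3c1 and Nr3c2, the steroid-activating enzyme Hsd11b1, and the glucocorticoid targets Sgk1, Tsc22d3 and Fkbp5. The 9 below it were the peptide genes Ucn, Ucn2, Pomc, Avp (vasopressin) and Oxt (oxytocin) and the receptor genes Avpr1a, Avpr1b, Oxtr and Mc4r. None of the 6 passed adjustment for any measure. At an unadjusted p under 0.05 there was 1 of 6 for startle (Hsd11b1, slope 0.18 ± 0.067), 0 for locomotion, 1 for plus maze (Nr3c1, 0.23 ± 0.087) and 1 for sugar feeding (Sgk1, 0.15 ± 0.054), all positive (SE, n = 9). The shares over all probe sets were 13.2% on startle, 1.96% on locomotion, 2.99% on plus maze and 1.40% on sugar feeding, and counts this small are not set apart from them. The median slope of the list was -0.052 for startle and -0.0046 for plus maze, where all probe sets had 0.021 and 0.011, and 0.033 for both locomotion and sugar feeding, where all had -0.010 and -0.0030.

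Downstream of these receptors, 21 of 27 measured genes of cyclic AMP signalling were above background. For startle 3 of 21 had an unadjusted p under 0.05: the protein kinase A catalytic subunit gene Prkaca at -0.22 ± 0.051, the arrestin gene Arrb2 at -0.21 ± 0.062 and the cyclic AMP responsive factor gene Crem at 0.22 ± 0.082 (SE, n = 9). That is 1 positive and 2 negative, near the share of 13.2% over all probe sets, and each had a limma adjusted p of 0.359. There were 0 for locomotion, 1 for plus maze (Prkar1b, a regulatory subunit, 0.085 ± 0.033) and 1 for sugar feeding (Adcy6, an adenylyl cyclase, 0.12 ± 0.037). The shares over all probe sets for these 3 measures were 1.96%, 2.99% and 1.40%. On plus maze the median slope was 0.0042, on startle 0.0034, on locomotion 0.00014 and on sugar feeding -0.0020.

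In the tachykinin and neurotensin list 7 of 11 measured genes were above background, among them the neurokinin B gene Tac3, its receptor gene Tacr3 and the neurotensin-binding sortilin gene Sort1, while the substance P receptor gene Tacr1 was below. None of the 7 had an unadjusted p under 0.05 for any of the 4 measures. Over all probe sets the shares were 13.2% on startle, 1.96% on locomotion, 2.99% on plus maze and 1.40% on sugar feeding. Of 5 measured relatives of PACAP and its receptor, only Vip was above background, at a mean of 8.37, and its startle slope was 0.16 ± 0.104 (SE, n = 9). Of 34 other neuropeptide and receptor genes 17 were above background, and 3 of them had an unadjusted p under 0.05, none of them for startle. These were the cholecystokinin receptor gene Cckbr at -0.14 ± 0.050 for locomotion, Nxph1 at 0.43 ± 0.140 for plus maze and the somatostatin receptor gene Sstr2 at 0.21 ± 0.083 for sugar feeding (SE, n = 9). All 5 measured peptide-processing genes were above background, and only Pcsk1n, the inhibitor of a prohormone convertase, had an unadjusted p under 0.05, with a locomotion slope of -0.10 ± 0.041 (SE, n = 9). None of these genes passed adjustment for any measure in limma, and counts this small are not set apart from the shares over all probe sets.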

How the data were processed

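The authors deposited log2 values for each probe set. The submitters' processing notes name GCRMA and R 2.6.2, and the settings were not given in the sources used here. GCRMA corrects background by probe sequence and normalizes between arrays. Control probe sets (57) and the lowest 40% by mean were left out, which kept 9520 of 15866. Gene names came from the platform annotation: 12783 probe sets had 1 symbol, 312 several and 2771 none listed. Median log2 per array was 4.11 to 4.28.

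limma 3.58.1 in R 4.3.3 (lmFit, eBayes) fitted a slope per SD of each measure over 9 rats, two-sided, with Benjamini-Hochberg adjustment over all 9520 probe sets at 0.05. A check of the code added known slopes to measured values and got them back, which a linear fit must do. It bears on the code alone and not on the p-values. Correlations over 9 rats used exact two-sided permutation over 362880 pairings (numpy 2.4.6, pandas 2.3.3, Python 3.11.15). This was done for 16 member relations, 10 member pairs and the array background level on each measure. A permutation p in the 7 rats used all pairings of those 7. No p was adjusted over the members alone. All member probe sets are named, with the 3 genes of highest r for each one above background; genes of lists are named by smallest limma p or as examples chosen after their values were seen. Lists use the probe set of highest mean per gene. The members, lists, tests and the division of rats 8 and 9 were chosen with earlier results of these data known. Alternatives were no filter, a 70% filter, ranks, repeated quantile normalization, array weights, each rat or pairs of rats left out, and added terms.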

Additional observations from a re-analysis of the deposited data

Results flagged for a closer look

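Dixon's ratio over the 9 rats was computed for the 9 probe sets and the 4 measures, and 2 of these 13 had a rat beyond the 95% limit. Chance alone flags about 1 in 20 where values are normally distributed and without ties. Both flagged probe sets hold equal values, in 6 rats for Crhbp and 3 for Tac1, so that rate cannot be relied on for them. Crhbp in rat 8, at 5.34, lay below the other 8 rats, of which 6 share the value 5.73. Tac1 in rat 1, at 3.06, lay above the other 8, between 2.92 and 2.96, although all 9 are below background.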

How the results depend on the processing

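Without the filter on low values 1 probe set passed adjustment for startle, in place of 0; under the other alternatives, each rat left out included, 0 passed for any measure. The alternative background thresholds were the 95th percentile of the genes of other organs, 3.72, and the same without Alb and Prm1, 3.40. Both also left 5 member probe sets below, and the second was chosen after seeing the data. Of 16 member slopes 5 kept their direction in every alternative in which they could be fitted: Adcyap1r1 and Ntsr2 on startle and Adcyap1r1 on plus maze in 18, and Adcyap1 on locomotion and plus maze in 17, since the 70% filter leaves out Adcyap1 and Crhbp. None passed adjustment in any of them. The other 11 took the opposite sign as follows (log2 units per SD), and the cause was not tested. With ranks of the measure they were 0.000357 for Ntsr2 on locomotion and 0.000824 for Adcyap1 on sugar feeding. With array weights they were 0.019 and 0.022 for Ntsr2 on locomotion and sugar feeding, and 0.022 for Adcyap1 on startle. After quantile normalization Ntsr2 on sugar feeding was 0.0054. With a term for the array background level, chosen after seeing the data, Adcyap1 on startle was 0.048. With a term for rats 8 and 9, Adcyap1r1 was 0.013 on locomotion and 0.016 on sugar feeding, and without these rats 0.011 and 0.014. With the 2 rats of most distant value left out, Ntsr2 was 0.030, 0.000188 and 0.028 on locomotion, plus maze and sugar feeding, Adcyap1 0.057 and 0.098 on startle and sugar feeding, and Crhbp 0.046 on sugar feeding; the correlation of Crh with Crhbp was 0.469 and with Adcyap1 0.143. Leaving out each rat in turn gave ranges of -0.0065 to 0.091 for Crhbp on startle, -0.12 to 0.00087 on locomotion, -0.028 to 0.010 on plus maze and -0.15 to 0.00062 on sugar feeding. They were -0.049 to 0.061 and -0.022 to 0.015 for Adcyap1 on startle and sugar feeding, and -0.125 to 0.038 and -0.115 to 0.031 for Adcyap1r1 on locomotion and sugar feeding. For Ntsr2 they were -0.021 to 0.013, -0.063 to 0.0080 and -0.035 to 0.045 on locomotion, plus maze and sugar feeding. The signal over background limits Crh, Tac1 and 3 Adcyap1r1 probe sets.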
